A study of Mus musculus with 5 samples.

Results

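In the islet libraries of a non-pregnant and a pregnant sample, a large group of cell barcodes carried a high level of insulin transcripts together with low levels of several other islet hormones. These mixed-hormone barcodes were chosen by their hormone shares: Ins1 plus Ins2 of at least 10% of the barcode's transcripts, Gcg of at least 1% and under 5%, and Ppy of at least 0.3%. The rule took 245 of 847 barcodes in the non-pregnant library (28.9%, 95% Clopper-Pearson interval 25.9% to 32.1%) and 716 of 1993 in the library pregnant 1 (35.9%, 33.8% to 38.1%), 961 of 2840 in both. They were set beside insulin-dominant barcodes of the same library, with Ins1 plus Ins2 of at least 20% and Gcg, Sst and Ppy together under 1%, of which there were 274 and 577. Intervals cover counting error only.

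Islets of C57BL/6 mice had been isolated and dissociated, and polyadenylated RNA of viable cells was counted by inDrop, a droplet method in which every captured transcript gets its own molecular tag, read as a UMI. The series holds 5 libraries with 4687 barcodes: 1 of non-pregnant mice, 2 of pregnant mice and 2 of postpartum mice. Nothing in the labels gives an age, a day of pregnancy or the number of mice behind a library, and nothing says that libraries came from separate animals. The non-pregnant file has another scale and a longer feature list than the others, so pregnancy and file type cannot be told apart, and the 2 libraries were never tested against each other. Barcodes are numbered in the files without their sequences, so barcodes shared between libraries were not counted.

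Islet endocrine cells are usually defined by the hormone that leads their transcripts: insulin in beta cells, glucagon (Gcg) in alpha cells, somatostatin (Sst) in delta cells and pancreatic polypeptide (Ppy) in gamma cells. Insulin lowers and glucagon raises blood glucose, somatostatin restrains the release of both, and pancreatic polypeptide acts on appetite and exocrine secretion. Peptide YY (Pyy), a relative of Ppy, and amylin (Iapp), released with insulin, are further islet hormones. In pregnancy, beta cells respond to lactogenic hormones through the prolactin receptor (Prlr).

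The hormone values below describe the choice and were not tested. Insulin transcripts of the non-pregnant library took 14.3% to 42.3% of the UMIs of a mixed-hormone barcode, with a median of 21.7%, against a median of 28.2% in insulin-dominant barcodes. In pregnant 1 the range was 10.03% to 43.9% and the medians were 27.7% and 36.6%. Insulin was thus the leading hormone, at a lower share than in insulin-dominant barcodes. The median Gcg share was 2.02% and 2.21% in the non-pregnant and pregnant 1 libraries, and the median Ppy share was 0.815% and 0.907%. Barcodes led by glucagon (Gcg of at least 20% and insulin under 5%, 59 and 85 barcodes) held a pooled 26.3% and 31.2% of Gcg. The glucagon share of mixed-hormone barcodes was far below that of glucagon-led ones in both libraries, a gap fixed by the limits of under 5% and at least 20%.

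**Figure D1:**
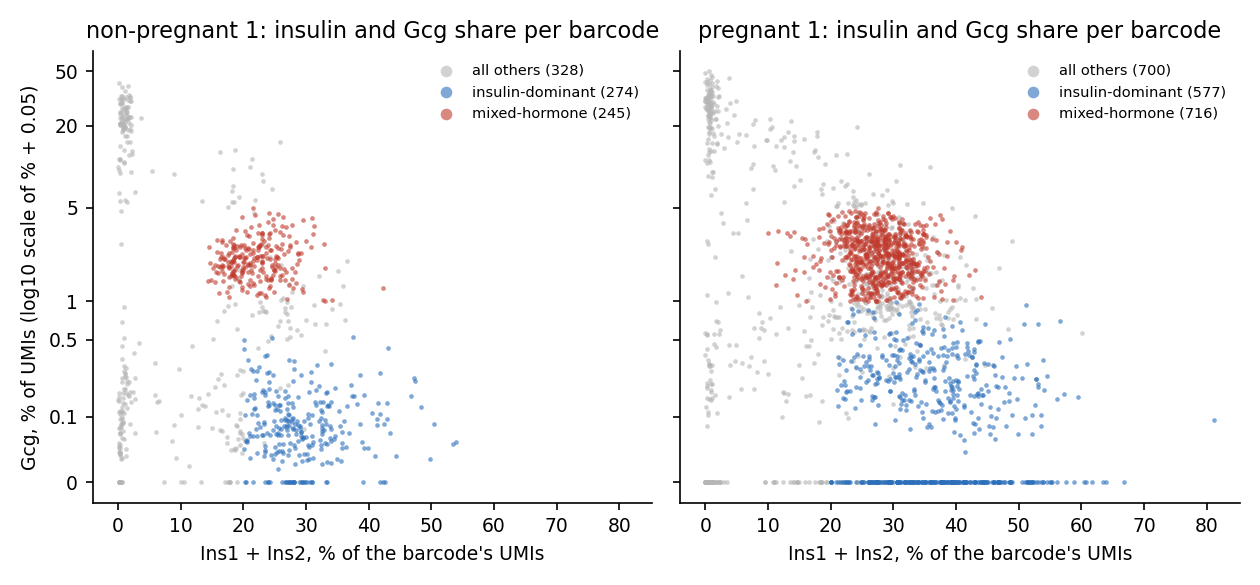
Each point is a barcode of the non-pregnant library (left) or pregnant 1 (right), placed by its insulin share (x, % of UMIs) and its Gcg share (y, log10 scale of % + 0.05). The 245 and 716 mixed-hormone barcodes (red) lie between the insulin-dominant barcodes (blue) and the few glucagon-led barcodes at the upper left, with medians of 2.02% and 2.21% Gcg; the rule fixed this range.

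Sst was not part of the rule for mixed-hormone barcodes, but it was one of the hormones limited in the insulin-dominant ones. In the non-pregnant library 99.6% of mixed-hormone barcodes held an Sst UMI, with a median share of 0.850% and a highest share of 3.38%. In pregnant 1 this was 69.4%, with a median of 0.226% and a highest share of 3.87%. In insulin-dominant barcodes 69.3% and 13.2% held an Sst UMI. With each barcode thinned to 300 UMIs, the shares with an Sst UMI were 88.6% and 52.6% in mixed-hormone barcodes, 11.7% and 6.81% in insulin-dominant barcodes, and 18.6% and 12% in glucagon-led barcodes, a class that should lack the gene. Thinning left out 79 mixed-hormone, 48 insulin-dominant and 10 glucagon-led barcodes of pregnant 1, and none of the non-pregnant ones.

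Pyy, which entered neither rule, took a pooled 1.18% of the UMIs of mixed-hormone barcodes and 0.0884% of those of insulin-dominant barcodes in the non-pregnant library. The same values in pregnant 1 were 1.68% and 0.159%. Barcodes led by Ppy (at least 10%, 34 and 29 barcodes) held 11.7% and 10.4% of Pyy. Ppy and Pyy are neighbours on chromosome 11 in GRCm38 (Ppy at 102099931 to 102101319, Pyy at 102106676 to 102107832), and their longest exact shared stretch of transcript was 10 bases. Ins1 and Ins2 share a stretch of 56 bases, so the split of reads between them is uncertain. Iapp took a pooled 5.03% against 6.58% in the non-pregnant library and 4.68% against 4.72% in pregnant 1. Ghrl (ghrelin) had 0 UMIs in both classes of the non-pregnant library and was not used in pregnant 1.

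The pooled shares can be set beside those of the remaining barcodes of the library, meaning all those outside the rule, insulin-dominant ones included. In the non-pregnant library the remaining barcodes pooled to 19.9% insulin, 3.02% Gcg, 1.26% Sst, 1.81% Ppy and 1.77% Pyy. Mixed-hormone barcodes there pooled to 22.0%, 2.18%, 0.988%, 1.01% and 1.18%. In pregnant 1 the remaining barcodes pooled to 27.8%, 3.12%, 0.296%, 0.837% and 1.46%, against 27.9%, 2.34%, 0.319%, 1.15% and 1.68%. The lower Sst of pregnant 1 thus showed in both its mixed-hormone and its remaining barcodes. The pools of the remaining barcodes include hormone-led ones, and their medians were much lower, at 0.131% Gcg, 0.0546% Sst and 0.151% Ppy in the non-pregnant library and 0.372%, 0% and 0% in pregnant 1. The rule fixes the range of Gcg in the mixed-hormone barcodes, and sets only a minimum for insulin and Ppy. The highest Ppy share among them was 12.3% in the non-pregnant library and 10.8% in pregnant 1. The class therefore overlapped with the Ppy-led barcodes, which were defined by at least 10% Ppy alone.

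Hormone-led barcodes held far less insulin than mixed-hormone ones, but not little of every other hormone. For glucagon-led barcodes the limits fixed this insulin gap, at under 5% against at least 10%. Barcodes led by Ppy or Sst had no insulin limit. Glucagon-led barcodes carried a pooled 2.06% of Pyy in the non-pregnant library and 4.002% in pregnant 1. Both values were above the 1.18% and 1.68% of mixed-hormone barcodes. Glucagon-led barcodes carried a pooled 0.970% and 0.885% of insulin and 0.0523% and 0.0642% of Sst. Ppy-led barcodes carried 1.40% and 4.21% of insulin, 1.07% and 1.75% of Gcg, and 1.01% and 0.414% of Sst. Mixed-hormone barcodes pooled to 2.18% and 2.34% of Gcg and 0.988% and 0.319% of Sst. Barcodes led by Sst (at least 20%) numbered 11 in the non-pregnant library and 0 in pregnant 1. The former carried 0.460% of insulin and 0.0645% of Gcg, but 5.72% of Pyy and 3.81% of Iapp.

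Among barcodes with at least 10% insulin, many had a Gcg share of 1% to 3% in both libraries. Of 647 such barcodes in the non-pregnant library 51.2% were under 0.5%, 5.56% were at 0.5% to 1%, and 20.7%, 14.8% and 5.10% fell at 1% to 2%, 2% to 3% and 3% to 5%. In pregnant 1 the shares over 1749 barcodes were 34.5%, 9.32%, 23.2%, 17.6% and 11.9%. In postpartum 2 the shares over 872 barcodes were 71.3%, 11.2%, 4.93%, 2.18% and 2.87%. The ranges differ in width. Per percentage point of Gcg, the non-pregnant library had 11.1% of barcodes at 0.5% to 1% and 20.7% at 1% to 2%, and pregnant 1 had 18.6% and 23.2%, so a low point before 1% was plainer in the former. Postpartum 2 had 22.5% and 4.93%. Pregnant 2 had 6.06% and 9.09% of 99 barcodes, from 3 and 9 barcodes. In a barcode of 87 UMIs, the median of that library, 1 Gcg UMI is already more than 1%. Its values therefore cannot show whether there was a low point before 1%.

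**Figure D2:**
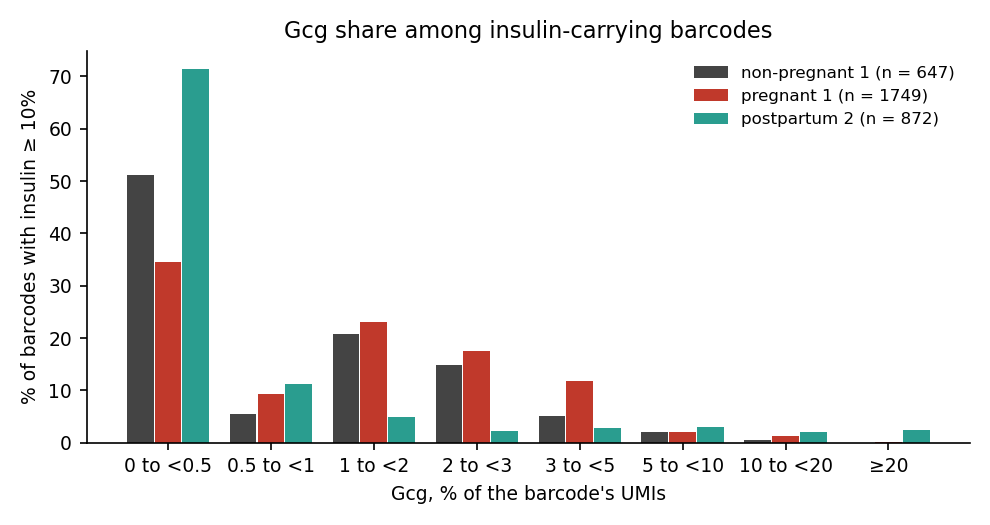
Bars give the % of barcodes with at least 10% insulin (y) whose Gcg share falls in each range (x, % of UMIs), for the non-pregnant library (grey, n = 647), pregnant 1 (red, n = 1749) and postpartum 2 (green, n = 872). The ranges differ in width; at 1% to 2%, bars reach 20.7% and 23.2% in the first 2 and 4.93% in postpartum 2.

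Under the same thresholds pregnant 2 had 1 of 164 barcodes (0.610%, interval 0.0154% to 3.35%), postpartum 1 had 6 of 557 (1.08%, 0.396% to 2.33%) and postpartum 2 had 27 of 1126 (2.40%, 1.59% to 3.47%). The median UMIs per barcode of these libraries were 87, 236 and 572.5, against 2553 in the non-pregnant library and 539 in pregnant 1. Postpartum 2 thus had a median depth near that of pregnant 1, and a lower share. The intervals cover counting within 1 library and not the spread between libraries, and the cause of these differences was not tested. The 2 pregnant libraries, at 35.9% and 0.610%, did not have like shares, and pregnant 2 was far shallower.

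Barcodes on either side of a limit carried the other hormones too. In pregnant 1 the 42 barcodes with 0.8% to 1% Gcg that met the other limits had median shares of 0.913% Ppy, 0.124% Sst and 0.859% Pyy, and the 60 barcodes with 1% to 1.2% Gcg had 0.854%, 0.148% and 1.29%. The 41 barcodes at 4% to 5% Gcg had a median Sst share of 0.172% and the 17 at 5% to 6% had 0.339%. With 0.2% to 0.3% Ppy there were 60 further barcodes, against 74 at 0.3% to 0.4%. In the non-pregnant library the Gcg limit of 1% had 12 barcodes just outside and 15 just inside, with median Sst shares of 1.18% and 0.738%, and the Ppy limit 10 and 7. The insulin limit did not bind, with 0 barcodes at 8% to 10% insulin that met the other limits in either library.

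Within the group, hormone shares varied more between barcodes than counting alone gives. The variance of the Sst share was 9.73 times its counting variance in the non-pregnant library and 2.09 times in pregnant 1, and that of Pyy 7.61 and 2.94 times. For Ins2 it was 17.8 and 4.40 times, against 36.2 and 12.8 times in insulin-dominant barcodes. The granule protein gene Chga was near counting error, at 1.31 and 1.105 times. Insulin thus spread less widely in mixed-hormone than in insulin-dominant barcodes, though the rule's limits differ between them. Across barcodes, the Ppy and Pyy shares had Pearson's r of 0.32 in the non-pregnant library and 0.43 in pregnant 1 (Spearman's rho 0.37 and 0.14, n = 245 and 716). Sst and Gcg had -0.04 and 0.07. These shares come from the same barcodes and totals, and are given as a description.

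Mixed-hormone barcodes were not deeper than insulin-dominant ones. The libraries held 2561319 and 1271186 UMIs. Their median was 2597 UMIs (1000 to 10784) in the non-pregnant library and 552.5 (262 to 3300) in pregnant 1, against 2898.5 and 611 in insulin-dominant barcodes. The median number of genes per barcode was 1009 against 1118 and 199.5 against 218. After thinning to 300 UMIs it was 141 in both classes of the non-pregnant library, and 125 against 120 in pregnant 1. Scrublet, which scores barcodes against simulated doublets, called 2 mixed-hormone barcodes in each library as doublets, of 3 and 5 calls in the whole libraries. All barcodes were kept.

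Ribosomal RNA and mitochondrial transcripts were higher in mixed-hormone barcodes. In the non-pregnant library Gm42418, a gene that overlaps ribosomal RNA sequence, had a median share of 2.77% in mixed-hormone and 0.121% in insulin-dominant barcodes, and a pooled 2.55% against 0.281%. It reached 1% in 199 of 245 mixed-hormone barcodes (81.2%), 18 of 274 insulin-dominant barcodes (6.57%) and 49 of the 328 barcodes in neither class (14.9%). The median in glucagon-led barcodes was 0.0984%. Mitochondrially encoded transcripts had a median share of 5.41% against 3.31%, and 3.19% in the remaining barcodes. In pregnant 1, Rn45s, the ribosomal RNA precursor, had a median of 5.24% against 2.62%, and 3.399% in the remaining barcodes. For Gm42418 and mitochondrial transcripts the mixed-hormone barcodes therefore had higher medians than the insulin-dominant, remaining, glucagon-led and Ppy-led barcodes. These features are not shared between the 2 files, come from 1 library each, and were not tested.

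**Figure D3:**
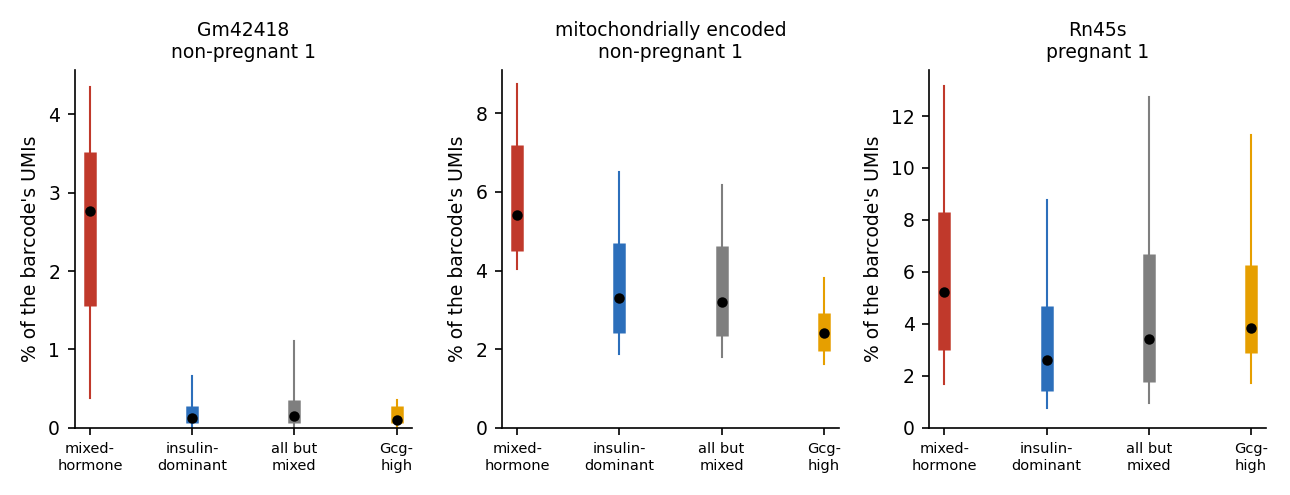
Each panel gives the % of a barcode's UMIs (y) in Gm42418 or mitochondrially encoded genes (non-pregnant library) or Rn45s (pregnant 1), for 4 classes of barcodes (x); dots are medians, thick bars the middle 50% of barcodes and thin lines the middle 80%. Mixed-hormone barcodes have the highest median in each panel, 2.77%, 5.41% and 5.24%.

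The non-hormone genes, which the rule did not use, were compared on UMIs summed over the barcodes of a class in each library. Levels are CPM, UMIs of a gene per 1000000 non-hormone UMIs over the genes shared by the files, and differences are mixed-hormone minus insulin-dominant on the scale of log2(CPM + 20), which understates changes of low genes. The sums held 365347 and 459985 UMIs in the non-pregnant library and 209715 and 178508 in pregnant 1, and the floor for a gene with a count of 0, taken as 3 counts, is 8.21, 6.52, 14.3 and 16.8 CPM. Rbp4, Ttr, all tested endothelial markers and some genes for ribosomal proteins rose, and Malat1, Prlr and Nkx6-1 fell. Of 4576 genes tested, 110 passed limma's test at a Benjamini-Hochberg adjusted p under 0.05 (2.4%), 58 higher (1.27%) and 52 lower (1.14%) in mixed-hormone barcodes. All 110 had the same direction in both libraries, which a call on the mean of 2 differences nearly requires. The fit has 1 residual degree of freedom, and the error of a gene was set by the trend over genes rather than by its own spread. The number of calls was 92 with edgeR on recovered UMIs, 12 with DESeq2, 21 with barcodes thinned to 300 UMIs, and 0 with limma without the library as a block (122 genes at an unadjusted p under 0.05).

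**Figure D4:**
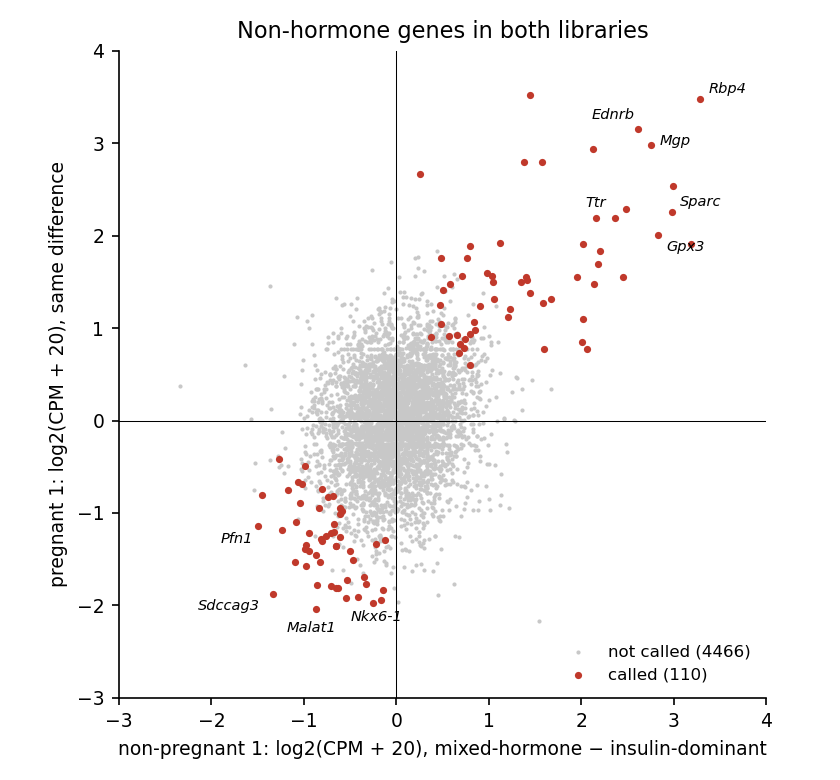
Each point is 1 of 4576 non-hormone genes, placed by its log2(CPM + 20) difference, mixed-hormone minus insulin-dominant, in the non-pregnant library (x) and in pregnant 1 (y). The 110 called genes (red) lie in the upper right and lower left corners, with Rbp4 at 3.29 and 3.47, and Malat1 at -0.87 and -2.04.

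Genes of other endocrine cells stood out among those that rose. Rbp4, the retinol-binding protein and a delta cell marker, had 515 CPM (188 UMIs) in mixed-hormone and 34.8 CPM (16 UMIs) in insulin-dominant barcodes of the non-pregnant library. In pregnant 1 it had 763 CPM (160 UMIs) and 50.4 CPM (9 UMIs). Its log2 difference was 3.38 ± 0.28 (SE; limma adjusted p = 4.81e-30). Both libraries thus showed a rise of about the same size, 14.8-fold and 15.1-fold. Barcodes led by Sst held 5820 CPM of Rbp4, and glucagon-led barcodes held 883 and 1330 CPM.

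Ttr, transthyretin, a thyroid hormone carrier abundant in alpha cells, had 2628 against 493 CPM in the non-pregnant library and 2685 against 571 CPM in pregnant 1. Its log2 difference was 2.28 ± 0.20 (SE; limma adjusted p = 8.68e-27). The level in mixed-hormone barcodes lay well under the 23388 and 24840 CPM of glucagon-led barcodes. Of 9 measured alpha markers other than Gcg, 6 were tested and 3 rose, against 1.27% of all genes tested. Among them were Ttr and Gc (vitamin D binding protein, 1.47 ± 0.30, limma adjusted p = 0.000169). The median over the 6 was 0.95, against -0.0014 over all genes tested. Irx1 and Irx2, transcription factors of alpha cells, were too low to be tested, and had 17 and 17 UMIs in mixed-hormone against 3 and 2 UMIs in insulin-dominant barcodes of the non-pregnant library. In pregnant 1 they had 9 and 7 against 0 and 1. Pcsk2, the proconvertase that also acts in beta cells, and Tm4sf4 had differences of -0.28 and -0.24 and did not pass. The sum over the 9 markers, most of it Pcsk2, was 9618 against 7763 CPM in the non-pregnant library and 11711 against 11815 CPM in pregnant 1, so it was not higher there.

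Hhex, the transcription factor of delta cells, had 16 against 2 and 11 against 2 UMIs and was not tested. Of 2 tested gamma markers, Tspan8, a tetraspanin, rose (1.19 ± 0.36, limma adjusted p = 0.0460), while Meis2 had a difference of 0.17 and did not pass. Gpx3, a secreted glutathione peroxidase, had 709 against 82.6 CPM and 1054 against 246 CPM, and 6609 and 5889 CPM in glucagon-led barcodes. Its log2 difference was 2.42 ± 0.24 (SE; limma adjusted p = 1.06e-20). The genes that rose thus included listed markers of alpha, delta and gamma cells. Among tested genes, delta cells were represented by Rbp4 alone and gamma cells by Tspan8 alone. Rbp4 was also present in glucagon-led barcodes, at 883 and 1330 CPM, and whether the cells behind them express it was not tested.

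Endothelial genes rose as a group: all 8 tested of 9 measured markers passed in the upward direction, against 1.27% of all genes tested, with a median log2 difference of 2.09. Pecam1, an adhesion molecule of vessel walls, had 42 UMIs in mixed-hormone and 5 in insulin-dominant barcodes of the non-pregnant library, and 28 and 0 in pregnant 1 (2.53 ± 0.44, limma adjusted p = 2.72e-06). Esm1, a secreted endothelial proteoglycan, had 76 against 4 and 27 against 1 UMIs (2.76 ± 0.40, limma adjusted p = 4.22e-09). Emcn, endomucin, had 57 against 18 and 25 against 0 UMIs (2.19 ± 0.39, limma adjusted p = 1.08e-05). The receptors of vascular growth factor Kdr and Flt1, Plvap of the fenestral diaphragm, Egfl7 and Igfbp7 rose by 1.43, 2.01, 1.96, 2.18 and 1.07. Cdh5, the cadherin of endothelial junctions, was not tested and had 42 against 5 and 14 against 1 UMIs.

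Summed over the 9 markers, mixed-hormone barcodes held 1536 CPM in the non-pregnant library, insulin-dominant barcodes 315 CPM, the remaining barcodes 1096 CPM and glucagon-led barcodes 331 CPM. In pregnant 1 these were 1078, 190, 802 and 142 CPM. None of the 9 was at 0 in mixed-hormone barcodes. Several other genes with the largest rises are known from vessels and matrix, as background: Ednrb, an endothelin receptor (47 against 2 and 33 against 0 UMIs), Sparc, a matrix protein (151 against 16 and 72 against 10), Mgp, an inhibitor of calcification (208 against 31 and 66 against 4), Thbs1, thrombospondin (65 against 7 and 22 against 1), Igfbp3, a binding protein of insulin-like growth factors (81 against 3 and 16 against 1), and the chemokine receptor Cxcr4 (17 against 2 and 44 against 0). Their log2 differences were 2.88, 2.62, 2.87, 2.39, 2.55 and 2.49, and limma's adjusted p was 3.29e-05 or lower for each. Ednrb, Thbs1, Igfbp3 and Cxcr4 also passed the filter only through their level in mixed-hormone barcodes. In the non-pregnant insulin-dominant barcodes 24 of the 31 Mgp UMIs came from 1 barcode.

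**Figure D5:**
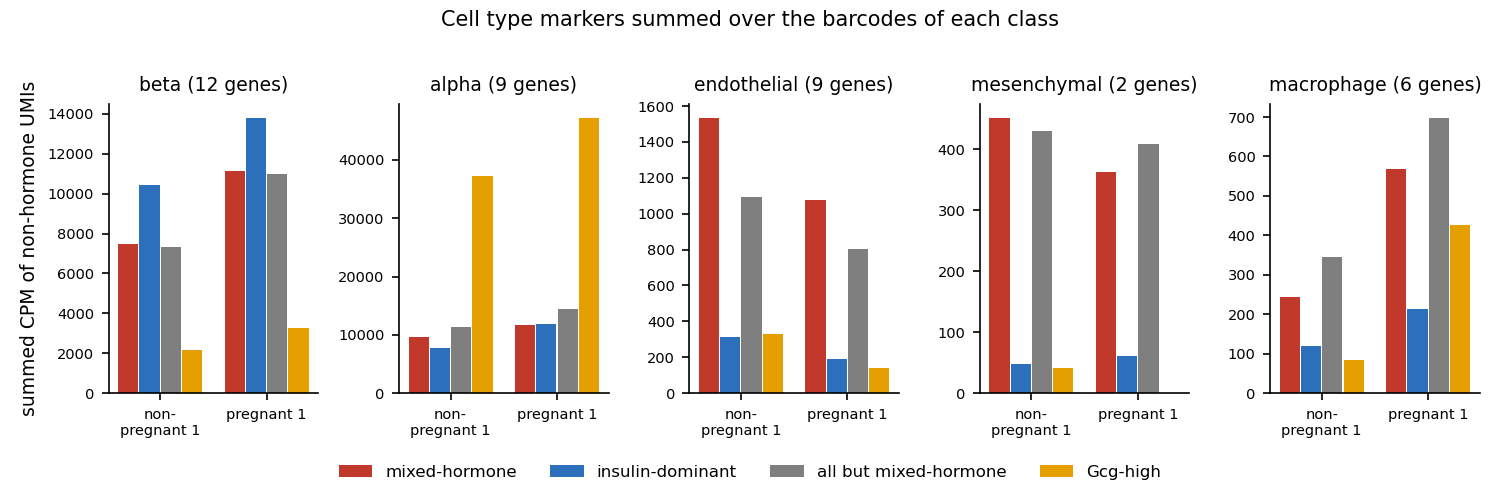
Bars give the summed CPM of non-hormone UMIs (y, from 0, a different scale in each panel) of the measured beta, alpha, endothelial, mesenchymal and macrophage markers in 4 classes of barcodes of each library (x), with 1 sum per bar and no error. Endothelial markers reach 1536 and 1078 CPM in mixed-hormone barcodes against 315 and 190 CPM in insulin-dominant ones, and beta markers 7478 and 11110 against 10409 and 13809 CPM.

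Markers of other cells moved with the group too. Of the mesenchymal list only Sparc and Rgs5 were measured, with sums of 452 against 47.8 CPM and 362 against 61.6 CPM. Defining fibroblast and pericyte markers such as Col1a1 and Pdgfrb were not used, so the list rests on Sparc, which endothelial cells also express. The 6 measured macrophage markers summed to 244 against 120 CPM and 567 against 213 CPM, and Cd74, the invariant chain of antigen presentation, rose (30 against 1 and 36 against 6 UMIs, 2.02 ± 0.40, limma adjusted p = 0.000157). C1qa, a complement gene of macrophages, did not pass, with 52.0 against 95.7 CPM and 267 against 174 CPM. Acinar markers summed to 512 against 126 CPM in the non-pregnant library, but to 38.1 against 22.4 CPM in pregnant 1, where 10 of 12 were at 0. Over the 9 measured lists of cells other than beta cells, 6 had a higher sum in mixed-hormone barcodes of both libraries, and 4 after thinning. The part of RNA from other cells in these differences was not tested.

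Endothelial markers were spread over many barcodes, the others over fewer. Of the non-pregnant library 167 of 245 mixed-hormone barcodes (68.2%) held at least 1 endothelial UMI, against 30.3% of insulin-dominant barcodes, and the 13 richest barcodes held 23.7% of the 561 UMIs. In pregnant 1 this was 20.4% against 5.37%, and the 36 richest of 716 barcodes held 46.5% of 226 UMIs. Macrophage, mesenchymal and acinar markers were in 18.0%, 35.5% and 36.7% of mixed-hormone barcodes of the non-pregnant library. In pregnant 1 they were in 9.78%, 7.26% and 1.12%. The 13 and 36 richest barcodes held 57.3% and 71.4% of the macrophage UMIs, and 33.3% and 78.9% of the mesenchymal UMIs. After thinning to 300 UMIs the shares with an endothelial UMI were 18.0% against 3.65% and 11.3% against 1.89%, and in glucagon-led barcodes, which should lack these genes, 3.39% and 2.67%. Of 5 groups of marker transcripts (Ttr, Rbp4, endothelial, macrophage and mesenchymal markers), 3 or more were present in 115 of 245 mixed-hormone barcodes (46.9%) and 7 of 274 insulin-dominant barcodes (2.55%) of the non-pregnant library. These are markers of other cell types, and the origin of their UMIs in these barcodes was not tested. In pregnant 1 it was 58 of 716 (8.10%) and 1 of 577 (0.173%). No test was made over barcodes, which are not replicates.

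Some genes for cytosolic ribosomal proteins rose. Of 63 tested, 11 passed upward, against 1.27% of all genes tested, and 0 downward, 52 were higher in both libraries against 28.6% of all genes tested, and the median was 0.47. Rps25 had 1185 against 846 CPM and 625 against 252 CPM (0.86 ± 0.22, limma adjusted p = 0.00587). Rpl13 had 1809 against 1070 CPM and 586 against 308 CPM (0.82 ± 0.21, limma adjusted p = 0.00752). Rpl23, 1 of the 4 highest of the list, had 1850 against 1422 CPM and 1521 against 807 CPM (0.64 ± 0.20, limma adjusted p = 0.0479). Many of these genes have near-identical pseudogenes, so their single values are uncertain. The summed level was 1.40 and 1.45 times that of insulin-dominant barcodes, and glucagon-led barcodes stood higher still, at 83729 and 66682 CPM against 66427 and 46167 CPM in mixed-hormone barcodes.

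Among 16 tested genes of the immediate early and dissociation response, 1 rose, against 1.27% of all genes tested: Jun (1.03 ± 0.29, limma adjusted p = 0.0186). None fell, 15 of 22 measured were higher in both libraries, and the median was 0.44. The 28.6% of all genes tested that were higher in both is no like background here, since only 16 of the 22 were tested. Junb had 569 against 278 CPM and 191 against 112 CPM, and Egr1 had 370 against 170 CPM and 272 against 179 CPM. Neither passed, with limma adjusted p of 0.0557 and 0.0811. Of 8 tested genes of antigen presentation 3 rose, against 1.27%: Cd74 and the class II genes H2-Aa and H2-Eb1 (2.02, 1.52 and 1.94), while B2m, H2-K1 and H2-D1 of class I had differences of 0.22, -0.15 and 0.06 and did not pass.

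Malat1, a long noncoding RNA kept in the nucleus, fell in both libraries. It had 692 CPM (253 UMIs) in mixed-hormone and 1285 CPM (591 UMIs) in insulin-dominant barcodes of the non-pregnant library. In pregnant 1 it had 1435 CPM (301 UMIs) and 5955 CPM (1063 UMIs). Its log2 difference was -1.46 ± 0.19 (SE; limma adjusted p = 2.32e-11). The remaining barcodes held 1533 and 4900 CPM and glucagon-led barcodes 2180 and 7362 CPM, so that mixed-hormone barcodes had the lowest level of these classes in each library. After thinning, 9.39% of mixed-hormone and 17.2% of insulin-dominant barcodes of the non-pregnant library held a Malat1 UMI, and 13.8% and 39.1% in pregnant 1. In pregnant 1, 1 mixed-hormone barcode held 33 of the 301 UMIs.

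Of 5 tested nuclear-retained noncoding RNAs, Malat1 and Meg3 fell and none rose. Meg3, an imprinted noncoding RNA, had 1746 against 2037 CPM in the non-pregnant library and 1183 against 3019 CPM in pregnant 1 (-0.78 ± 0.19, limma adjusted p = 0.0035). Neat1, Kcnq1ot1 and Xist did not pass. They had 424 against 389, 216 against 159 and 1407 against 1359 CPM in the non-pregnant library, and 472 against 700, 81.1 against 291 and 134 against 319 CPM in pregnant 1. The fall of the list was thus seen mainly in pregnant 1, and that difference between libraries was not tested.

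Markers of beta cells were present at somewhat lower levels. Of 12 tested, 2 fell and 0 rose, 10 were lower in both libraries against 27.8% of all genes tested, and the median was -0.32. Prlr, the prolactin receptor, had 682 against 1257 CPM in the non-pregnant library and 753 against 2095 CPM in pregnant 1 (-1.16 ± 0.20, limma adjusted p = 3.38e-06). Nkx6-1, a transcription factor of beta cell identity, had 400 against 591 CPM and 23.8 against 146 CPM (-1.23 ± 0.27, limma adjusted p = 0.00109), the latter from 5 and 26 UMIs. Prlr was thus lower in the pregnant as well as the non-pregnant library. Ucn3, a marker of mature beta cells, had 818 against 1237 CPM and 1950 against 1921 CPM. Slc2a2, the glucose transporter, had 309 against 333 CPM and 262 against 291 CPM, and G6pc2 had 1538 against 2296 CPM and 2112 against 2420 CPM. These 3 did not pass. Mafa had 1292 against 1277 CPM in pregnant 1. In the non-pregnant file it had 0 and 1 UMIs; that file has another feature list, and whether its counting of Mafa differs was not tested, so this is no measure of absence. The summed level of the 12 was 7478 CPM in mixed-hormone and 7338 CPM in the remaining barcodes of the non-pregnant library, and 11110 and 11008 CPM in pregnant 1. Glucagon-led barcodes held 2153 and 3277 CPM.

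The other genes with the largest falls had varied roles. Sdccag3, linked to endosomal traffic, had 43.8 against 141 CPM and 19.1 against 123 CPM (-1.61 ± 0.36, limma adjusted p = 0.00138), from 4 UMIs in mixed-hormone barcodes of pregnant 1. Pfn1, profilin, which binds actin, had 52.0 against 183 CPM and 129 against 308 CPM (-1.32 ± 0.29, limma adjusted p = 0.00105). Ccnd1, cyclin D1 of the cell cycle, had 454 against 715 CPM and 33.4 against 168 CPM (-1.22 ± 0.26, limma adjusted p = 0.000610). Rbm47, an RNA-binding protein, had 181 against 452 CPM and 181 against 437 CPM, nearly the same levels in both libraries. Rcor1, a corepressor subunit, Atp7a, a copper transporter, Psen2, a subunit of gamma-secretase, Nipal1, Cntn1, an adhesion molecule of neurons, and Lbh, a transcription cofactor, fell by 1.32, 1.32, 1.27, 1.25, 1.24 and 1.19 on the log2 scale. Of the ductal list, 1 of 6 tested genes fell, Spp1, osteopontin, with 597 against 1011 CPM and 610 against 1098 CPM (-0.78 ± 0.21, limma adjusted p = 0.0119), and none rose.

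Several lists of beta cell function had no call. Only 2.4% of all genes tested were called in either direction, so no call in lists of this size is near that share. None of 20 tested genes of prohormone processing and granules passed (median -0.17); Chga, chromogranin A, had 6695 against 9144 CPM and 7405 against 9596 CPM. None of 21 genes of folding and stress in the endoplasmic reticulum passed (median -0.08), nor any of 9 genes of glucose sensing and maturity (median -0.23), nor any of 35 nuclear genes of the respiratory chain (median 0.19, 22 higher in both libraries, against 28.6% of all genes tested). Hspa5, the main chaperone of the endoplasmic reticulum, had 3293 against 3372 CPM and 2813 against 3361 CPM. In the glycolysis list 1 of 8 fell, Aldoa, aldolase A (-0.84 ± 0.22, limma adjusted p = 0.00931). Gpx3 was the 1 of 15 antioxidant genes that passed, and the metallothioneins Mt1 and Mt2 had differences of -0.07 and -0.14. Of 12 tested islet transcription factors, 1 rose and 1, Nkx6-1, fell, and Pdx1, Pax6 and Neurod1 had differences of -0.51, -0.21 and -0.36 and did not pass. A missed threshold does not show that these levels were equal.

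Set against the remaining barcodes of their own library instead, mixed-hormone barcodes differed less. Past 2-fold in both libraries there were 34 higher genes (0.743%) and 6 lower genes (0.131%) against insulin-dominant barcodes, but 0 higher (0%) and 3 lower (0.0656%) against the remaining barcodes: Malat1, Pfn1 and Sdccag3. This comparison has 1 value per library and no test. The SD over genes of the log2 difference was 0.45 and 0.59 against insulin-dominant and 0.35 and 0.45 against the remaining barcodes, the latter sums being deeper. Rbp4 had 515 against 572 CPM in the remaining barcodes of the non-pregnant library and 763 against 552 CPM in pregnant 1, and Ttr had 2628 against 3329 CPM and 2685 against 3118 CPM. The remaining barcodes include the glucagon- and somatostatin-led ones, the Ppy-led ones outside the rule and the non-endocrine cells of the library.

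In postpartum 2, which the rule did not use, the 27 barcodes within the same thresholds held 6431 non-hormone UMIs, against 142719 in its 655 insulin-dominant barcodes. Ttr had 9330 against 981 CPM (60 and 140 UMIs), and Rbp4 had 1244 against 49.0 CPM (8 and 7 UMIs). Endothelial markers had 1710 against 540 CPM (11 and 77 UMIs), with 5 of the 11 UMIs in 1 barcode, and Malat1 had 6064 against 10685 CPM (39 and 1525 UMIs). These 4 differences had the same direction as in the 2 libraries of the rule. Mesenchymal markers did not, with 155 against 224 CPM (1 and 32 UMIs), nor did acinar markers, with 0 and 69 UMIs. Mgp had 0 UMIs in both classes. Macrophage markers had 20 UMIs, 17 of them in 1 barcode. With postpartum 2 added to the fit, 47 genes passed limma's test, 16 higher and 31 lower, and 16 of the 47 were among the 110.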

How the data were processed

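UMI counts were recovered from the deposited values. Values deposited for the non-pregnant library are a linear signal, each barcode scaled by the authors to 1 total, and the authors' other files hold log2(CPM + 1), as the values in them show. All counts recovered in both libraries used (100%) were whole to within 0.1. The submitters' processing notes name GRCm38, mm10, Partek 8.0 and Bowtie 1.1.1; how barcodes were counted and filtered is not given in the sources used here. Genes were matched by symbol (6543) or synonym (87), and 51 stayed unmatched. Coordinates come from an annotation of GRCm38.

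Shares were taken as the rule defines them, and no barcode was removed. UMIs were summed per class and library, without 7 hormone genes. The fit used limma 3.58.1 in R 4.3.3 on log2(CPM + 20), with library as a block and a trended prior, two-sided, for genes whose mean reached 50 CPM; it was tested on simulated data first. The mean in that filter was over the 4 sums. A gene under 50 CPM in both insulin-dominant sums was thus tested only if a mixed-hormone sum was higher. The prior had infinite weight. edgeR 4.0.16 and DESeq2 1.42.0 on recovered UMIs were alternatives; scanpy 1.11.5 ran Scrublet. With that infinite weight, limma's SEs and p-values rest on the trend over genes, not on a gene's own spread between the 2 libraries. Malat1, at -0.87 and -2.04 in the 2 libraries, still had an SE of 0.19. Replicate status of libraries is unknown, so these p-values do not measure spread between animals.

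Named genes were the 12 with the largest rise and the 12 with the largest fall among called genes with the same sign in both libraries and at least 10 UMIs in each, plus cell type markers and the 4 highest genes of each list; further genes named (Rps25, Rpl13, Jun, Junb, Egr1, H2-Aa, H2-Eb1 and Kcnq1ot1) were chosen after their values were seen. No lymphoid, granulocyte or erythroid marker was measured, and of the Schwann list only Gfra3 (0 and 8 UMIs in mixed-hormone barcodes). Results on some listed genes are not reported here. Members and lists were chosen with earlier results of these data known.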

Additional observations from a re-analysis of the deposited data

Results flagged for a closer look

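For 2 gene lists, the median log2 difference between mixed-hormone and insulin-dominant barcodes had opposite signs in the libraries; this difference was not tested. For glycolysis it was -0.29 in the non-pregnant library and 0.20 in pregnant 1. For nuclear-retained noncoding RNAs it was 0.0495 in the non-pregnant library and -1.34 in pregnant 1. In that list Malat1 and Meg3 were lower in both libraries, while Neat1, Kcnq1ot1 and Xist were higher in the non-pregnant library (by 0.12, 0.40 and 0.05) and lower in pregnant 1 (-0.55, -1.62 and -1.14).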

How the results depend on the processing

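The counts of called genes moved most with the model and the depth. The 58 higher and 52 lower genes became 11 and 1 with DESeq2, 0 and 0 with limma without the library block, 16 and 31 with postpartum 2 added, and 36 and 18 with insulin-dominant barcodes limited to the middle UMI range of the mixed-hormone ones. They became 38 and 25 with Ppy of at least 0.5%, and 10 and 11 with barcodes thinned to 300 UMIs, an alternative chosen after seeing the data. With no filter 95 were higher, with a minimum of 200 CPM 33 were higher, and with insulin-dominant barcodes under 0.5% of other hormones 28 were lower. Pseudocounts of 5 and 100 CPM, TMM factors, edgeR, means over barcodes, a minimum of 500 UMIs and removal of Scrublet doublets kept both counts within 1.5 times. All 24 named genes lost their call without the library block, 18 with postpartum 2, 16 after thinning and 12 with DESeq2; none of them changed direction in a setting that tested it. The cause was not tested.

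The share of mixed-hormone barcodes was 25.4% in the non-pregnant library with Ppy of at least 0.5%. In pregnant 1 it was 28.9% with that limit and 38.9% with Ppy of at least 0.2%. In postpartum 1 it was 3.57% (1 of 28) among barcodes of at least 500 UMIs. After thinning, mixed-hormone barcodes held 1.04% Sst and 1.13% Pyy in the non-pregnant library, and 1.58% Pyy and 4.84% Iapp in pregnant 1.

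No paired analysis was possible because the 2 groups share only replicate number 1; the library is already a block. Counts without either library were not run, since 1 library leaves no residual degree of freedom; its differences stand in the report. Leaving ribosomal RNA and mitochondrial genes out of the total was not run, since the shared genes hold none. Pregnant 2 and postpartum 1, with 1 and 6 mixed-hormone barcodes, were not added to the fit.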
